A study of Rattus norvegicus with 12 samples.

Results

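The organic ion and drug transporter families were followed in rat kidney from embryonic day 13 to 4 weeks after birth, and in a kidney tissue assembled in culture. The genes were all those with a single symbol in the array's annotation that belong to Slc22a (16 genes), Slc47a (1 gene), Slco (13 genes), Abcb (7 genes), Abcc (9 genes) or Abcg (6 genes), which made 52 of the 14217 genes so named. Each was read from 1 probe set, the one with the highest mean signal over the 12 arrays. The groups were whole rat kidney at embryonic day 13 (E13, 3 arrays), embryonic day 18 (E18, 4 arrays) and week 4 after birth (Wk4, 3 arrays), with 2 arrays of recombined tissue. This tissue combined non-branched ureteric buds (UB, the epithelium that gives rise to the collecting ducts) formed in vitro with metanephric mesenchyme (MM, which gives rise to the nephrons), and was kept in culture for 6 days. No strain, sex or genetic change is named for any group, and recombined tissue has no blood supply. Whether replicates were separate animals or cultures is not stated, so the tests measure only the spread between these arrays, which may be technical.

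These families carry drugs, toxins, hormones and waste products across the proximal tubule, the nephron segment next to the glomerulus. Uptake from blood across the basolateral membrane runs through organic anion transporters (Slc22a6 and Slc22a8, exchanging anions for dicarboxylates) and an organic cation transporter (Slc22a2). Exit into urine across the brush border runs through the proton-coupled cation exchanger Slc47a1 and through ATP-driven pumps of the Abcb, Abcc and Abcg families, while Slc22a12 and Slc22a5 recover urate and carnitine from the filtrate. Proteins of the Slco family take up bile acids, steroid conjugates, thyroid hormones and prostaglandins in liver, kidney, brain and other tissues.

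Signals are the deposited linear values, with no detection calls, and one gene's signal is never set against another's. Differences are on the log2(signal + 271) scale ± SE, in which the added 271 shrinks the changes of dim genes. A gene was called when limma's adjusted p was under 0.05 and the change at least 3-fold, with the adjustment over 22599 probe sets. Of the 52 genes 45 were tested and 7 (Abcb11, Abcg8, Slc22a3, Slco1a5, Slco1b2, Slco1c1 and Slco6b1) were not, since no array had them above its 40th percentile, a signal of 503 to 671; their signals lay between 5.88 and 445. Some tested genes passed this filter only through their Wk4 signal, so the counts below are given over all 52. The array medians ran from 799 to 1020, and precision is limited by how few arrays each group has.

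The 4 marker genes of these families are carriers of the proximal tubule. Slc22a6 (OAT1), which takes organic anions such as para-aminohippurate from blood, had signals of 39.3, 69.0 and 224 in the E13 arrays and 1247, 572, 736 and 847 at E18. At Wk4 they were 41493, 33285 and 34222, and in recombined tissue 245 and 105. No embryonic or recombined array came near the Wk4 arrays, and the E18 arrays all lay above the E13 and recombined ones. Slc22a8 (OAT3), its neighbour on the chromosome, read 682, 544 and 310.1 at E13, 1313, 989, 956 and 803 at E18, 56507, 52542 and 52711 at Wk4 and 431 and 339 in recombined tissue. Again the Wk4 arrays stood alone, and the E18 arrays lay above all E13 and recombined arrays. On the other probe set of Slc22a8 the Wk4 arrays stood alone too, at 4884, 4315 and 5048. There the E13 arrays (108, 329 and 241) overlapped the E18 arrays (450, 320, 313 and 525). Slc22a2 (OCT2), the basolateral cation carrier, read 148, 461 and 138 at E13, 559, 363, 270.1 and 399 at E18, 34636, 32287 and 42524 at Wk4 and 336 and 132 in recombined tissue. For this gene the E13, E18 and recombined arrays overlapped. Slc22a12 (URAT1), the urate exchanger of the brush border, read 8.58, 121 and 46.1 at E13, 883, 195, 737 and 281 at E18, 31247, 35961 and 30462 at Wk4 and 7.30 and 37.4 in recombined tissue. Its E18 arrays were spread widely, but all lay above the E13 and recombined arrays.

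**Figure D1:**
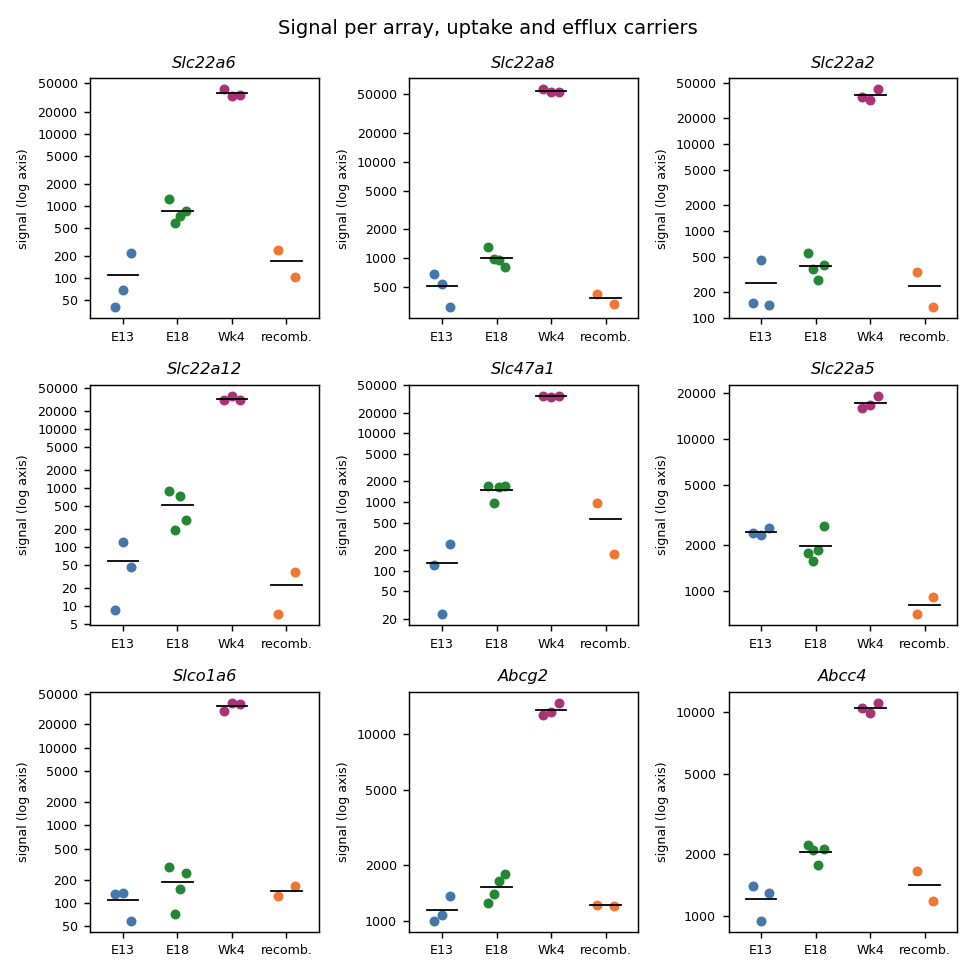
Deposited signal (log axis) of 9 transporter genes in each array, for 3 arrays at E13, 4 at E18, 3 at Wk4 and 2 of recombined tissue (recomb.). Points are arrays and lines are group means; in each panel the 3 Wk4 arrays lie above all others.

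Other markers of the proximal tubule that are not transporters of these families were higher at Wk4 too. All 7 listed (Lrp2, Cubn, Slc34a1, Slc5a2, Hnf4a, Aqp1 and Slc5a12) were called higher at Wk4 than at E18, against 5.76% of all probe sets tested. At E18 6 of the 7 were called higher than at E13, against 1.93%. The summed signal of the 7 was 1571 to 2107 in the E13 arrays, 27742 to 38340.2 at E18, 354167 to 397708 at Wk4 and 2105 to 4888 in recombined tissue. In whole tissue, fewer cells of a type and less RNA per cell cannot be told apart, and the part of proximal tubule cell number in the differences below was not tested.

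Slc22a24, Slc22a25 and Slc22a8 lie on chromosome 1. The windows before their starts are shown because, among the genes called higher at Wk4 than at E18, these 3 held a short motif. Since they were picked for it, their sharing it is no result. In the RefSeq annotation of build GRCr8, Slc22a25, Slc22a8 and Slc22a6 follow one another with 0 protein-coding genes between them, and Slc22a24 lies 3 genes beyond Slc22a25. The short motif is GTTAAT, or its complement read on the other strand, and is in capitals. Its 6 letters are only a part of the HNF1 site, and the whole site was not searched for. The windows run from 250 bases before to 50 after each gene's start, 5′ to 3′ on the gene's strand. They lie at chr1:214394632-214394931 (minus strand), chr1:214862291-214862590 (minus strand) and chr1:214927034-214927333 (plus strand).
Slc22a24: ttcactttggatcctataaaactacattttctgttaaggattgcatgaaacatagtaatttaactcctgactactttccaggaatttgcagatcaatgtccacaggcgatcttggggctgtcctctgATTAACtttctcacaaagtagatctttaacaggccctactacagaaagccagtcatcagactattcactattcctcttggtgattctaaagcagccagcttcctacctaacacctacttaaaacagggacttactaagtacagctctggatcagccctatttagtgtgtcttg
Slc22a25: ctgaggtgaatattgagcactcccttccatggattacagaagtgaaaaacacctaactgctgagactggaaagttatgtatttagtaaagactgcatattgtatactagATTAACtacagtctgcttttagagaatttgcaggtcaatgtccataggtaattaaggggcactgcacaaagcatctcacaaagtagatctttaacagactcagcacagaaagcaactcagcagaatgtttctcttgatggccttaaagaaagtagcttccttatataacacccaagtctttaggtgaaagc
Slc22a8: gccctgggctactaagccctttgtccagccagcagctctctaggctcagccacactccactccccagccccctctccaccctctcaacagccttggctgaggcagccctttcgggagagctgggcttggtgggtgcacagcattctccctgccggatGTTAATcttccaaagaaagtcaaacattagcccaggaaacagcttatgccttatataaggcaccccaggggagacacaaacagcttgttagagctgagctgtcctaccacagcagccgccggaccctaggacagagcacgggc

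HNF1 is a transcription factor of the proximal tubule and liver. The short motif, a part of its site, began 123 bases before the start in Slc22a24, 141 before in Slc22a25 and 93 before in Slc22a8. RefSeq windows of 300 bases were found for 43 of the 52 genes, and 5 of them (11.6%) held it on either strand, against 7.45% of all 33469 windows. The others were Abcc2 and Slco1b2, so that of the 17 genes called higher at Wk4 that had a window, 3 held it. Slc22a6 and Slc47a1 had no window in the table, so their letters were not searched. The letters CAAAGTCCA, a form of the HNF4 site, were in 1 of 43 windows (Abcb4) and 0.391% of all. The antioxidant response element TGACNNNGC was in 6 of 43 (14.0%) and 12.1% of all, and the xenobiotic response element GCGTG in 19 of 43 (44.2%) and 29.7% of all. The motifs were searched on both strands, and a match says only that the letters are there.

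From E13 to E18, while the first nephrons form, 2 of the 52 genes were called higher (3.85%, against 1.93% of all probe sets tested) and 0 lower (against 0.407%). Among changes of any size, limma's adjusted p fell below 0.05 for 13 genes that were higher at E18 and 1 that was lower, against 12.7% and 7.04% of all probe sets tested. The median difference over the 52 genes was 0.17, and -0.03 over all probe sets.

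Slc47a1 (MATE1), which passes organic cations into urine in exchange for protons, had the largest difference. It read 119.8, 23.3 and 245 at E13 and 1719.8, 978, 1659 and 1723 at E18, a difference of 2.17 ± 0.29 (limma adjusted p = 9.11e-05). The groups did not overlap, and E18 replicate 2 was the lowest of its group. The other called gene was Abcc9, which encodes SUR2, a regulatory subunit of ATP-sensitive potassium channels found in vascular muscle and pericytes rather than a drug pump. Its signals were 319, 449 and 415 at E13 and 1355, 2831, 1594 and 1409.6 at E18, a difference of 1.59 ± 0.21 (adjusted p = 8.99e-05), with E18 replicate 2 the highest. Abcc9 sat at the 3-fold limit: without E18 replicate 2 its difference was 1.38, without E13 replicate 1 it was 1.5, and in neither case was it called. Its other tested probe set differed by 1.05 and was not called.

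Among the carriers of organic anions and urate, Slc22a6 differed by 1.55 ± 0.22 (limma adjusted p = 0.000145), just under 3-fold, and was called without E13 replicate 3 (1.75), E18 replicate 2 (1.68) or E18 replicate 3 (1.59). Slc22a24, a lesser-known relative of the anion transporters, differed by 1.26 ± 0.19, and Slc22a12 by 1.18 ± 0.27. Slc22a8 (0.73 ± 0.18) and Slc22a25 (0.72 ± 0.18) were also higher with an adjusted p under 0.05, but the other probe set of Slc22a8 did not pass (0.45 ± 0.20). Slc22a7 (OAT2) read 397 ± 92.9 (SD, n = 3) at E13 and 305 ± 158 (SD, n = 4) at E18. Slco2a1, the prostaglandin uptake carrier, differed by 1.19 ± 0.19 (adjusted p = 0.000338), with E13 arrays at 961, 589 and 912 and E18 arrays at 2170.1, 2947, 1927 and 1842. All its E18 arrays lay above its E13 arrays. The single gene with lower values and an adjusted p under 0.05 was Slc22a17, a receptor for the iron carrier lipocalin-2, at -0.50 ± 0.13.

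**Figure D2:**
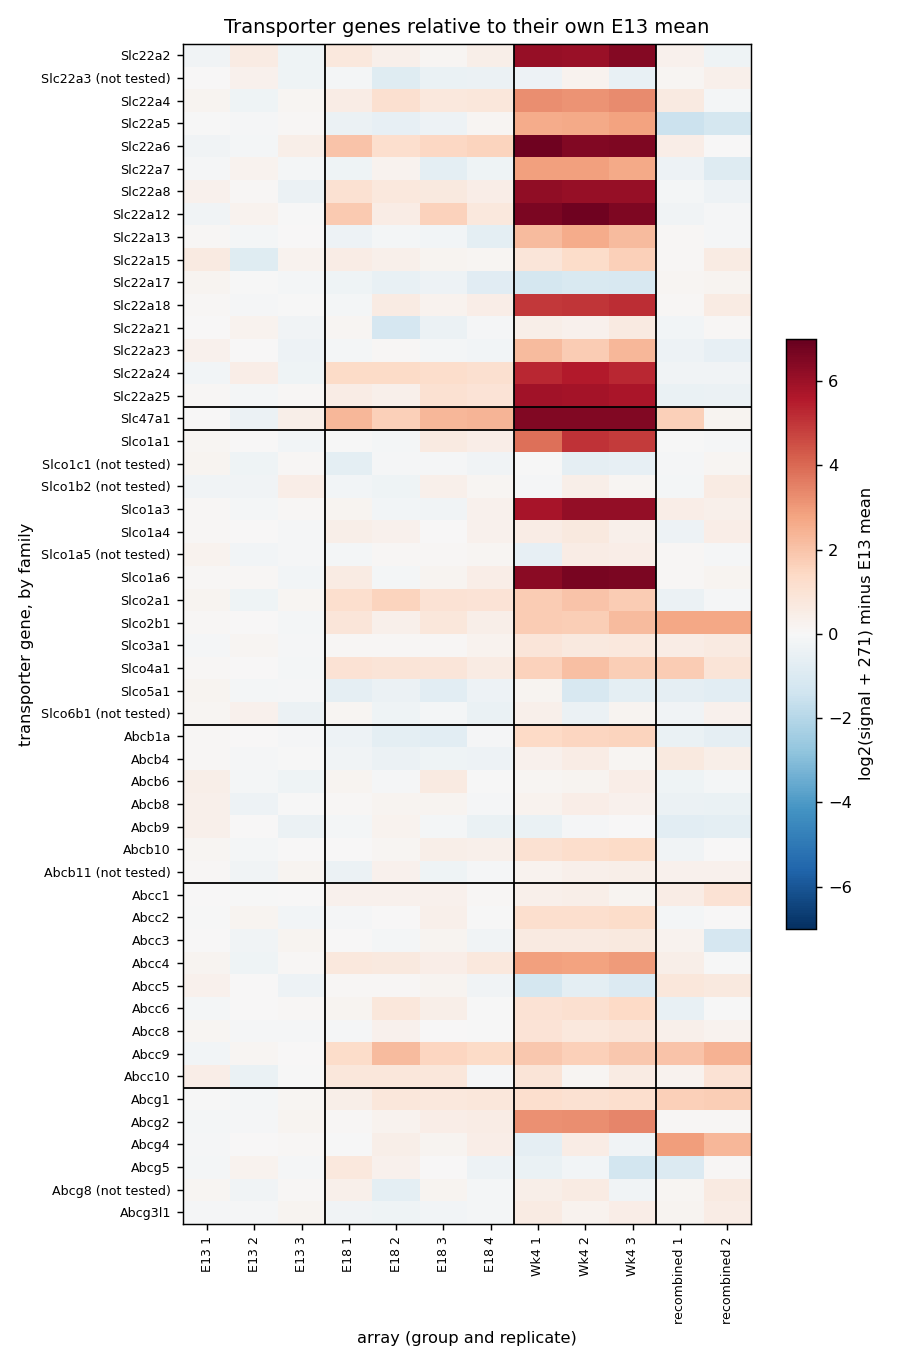
Difference of each array from the gene's own E13 mean, in log2(signal + 271), for the 52 transporter genes (rows, by family) and 12 arrays (columns). The Wk4 columns are dark for most Slc22a genes, Slc47a1, Slco1a1, Slco1a3 and Slco1a6, while the Abc rows change less; 7 genes were not tested.

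Between E18 and Wk4 the families separated. Of the 52 genes, 19 were called higher at Wk4 (36.5%, against 5.76% of all probe sets tested) and 0 lower (against 5.43%). The median difference was 0.81 over the 52 genes and -0.02 over all probe sets. By family, the call took in 12 of 16 Slc22a genes, the 1 Slc47a gene, 3 of 13 Slco genes, 1 of 7 Abcb genes (Abcb1a), 1 of 9 Abcc genes (Abcc4) and 1 of 6 Abcg genes (Abcg2). The median difference was 3.02 for Slc22a, 0.64 for Slco, 0.46 for Abcb, 0.67 for Abcc and 0.39 for Abcg. Differences between families were not tested.

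Among the Slc22a genes, the rise took in carriers of anions, cations and urate. The difference was 5.79 ± 0.23 for Slc22a2 (limma adjusted p = 8.92e-11), 5.47 ± 0.27 for Slc22a12, 5.41 ± 0.18 for Slc22a8, 5.09 ± 0.18 for Slc22a25, 5.06 ± 0.22 for Slc22a6 and 4.09 ± 0.19 for Slc22a24. Slc22a18, an imprinted gene whose product resembles an organic cation carrier, went from 415, 856, 646 and 796 at E18 to 23139, 24762 and 27825 at Wk4 (4.77 ± 0.19). The E18 and Wk4 arrays were far apart. Slc22a7 (3.04 ± 0.23) and Slc22a13 (2.68 ± 0.19), a carrier of urate and nicotinate, rose too, and Slc22a23, which has no settled substrate, rose by 2.19 ± 0.18, although its other probe set stayed under 3-fold (1.42). Slc47a1 reached 34911, 34345 and 34960.3 at Wk4, a difference of 4.31 ± 0.29, and its Wk4 arrays were close to each other.

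Slc22a5 and Slc22a4 were also called higher at Wk4 than at E18. Slc22a5 (OCTN2), which recovers carnitine from the filtrate, was above the 40th percentile on every array. It read 2408, 2326 and 2599.9 at E13, 1786, 1567, 1863 and 2659.8 at E18 and 16126, 16775 and 19190.3 at Wk4, a difference of 3.00 ± 0.16 between the last pair of stages. Slc22a4 (OCTN1), an ergothioneine carrier, went from 218, 475, 310.1 and 334 at E18 to 3065, 2846 and 3137 at Wk4 (2.46 ± 0.23). Slc22a21, which lies between them on the chromosome, differed by 0.84 ± 0.28 and was not called. Slc22a17 was lower at Wk4 (-0.65 ± 0.13, adjusted p = 0.000748), at less than 3-fold, with arrays at 3481, 4056 and 3851.

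Within the Slco family the rise lay in 3 neighbouring genes. Slco1a6 read 130.1, 134 and 58.5 at E13, 286, 71.3, 153 and 242 at E18 and 29421, 37933 and 36347 at Wk4, a difference of 6.26 ± 0.19 (limma adjusted p = 9.1e-12). Slco1a3 went from 104, 8.87, 5.0 and 124 at E18 to 17502, 22515 and 23095 at Wk4 (6.01 ± 0.19). Slco1a1, the first Oatp, which takes up steroid conjugates and bile acids, went from 51.2, 29.4, 244 and 192 to 4605, 10602 and 9579 (4.37 ± 0.28), with Wk4 replicate 1 below the other two. These genes stand side by side in the order Slco1c1, Slco1b2, Slco1a4, Slco1a1, Slco1a3, Slco1a6 and Slco1a5, with 0 protein-coding genes between any pair of neighbours. Slco1a4, found in liver and at the blood-brain barrier, read 949 ± 135 (SD, n = 4) at E18 and 1205 ± 184 (SD, n = 3) at Wk4. Slco1a5, on the other side, read 67.1, 445 and 418 at Wk4, and the liver gene Slco1b2 71.4, 208 and 129. The Slco1a genes are close copies of one another, and how far one probe set picks up another's transcript was not tested.

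**Figure D3:**
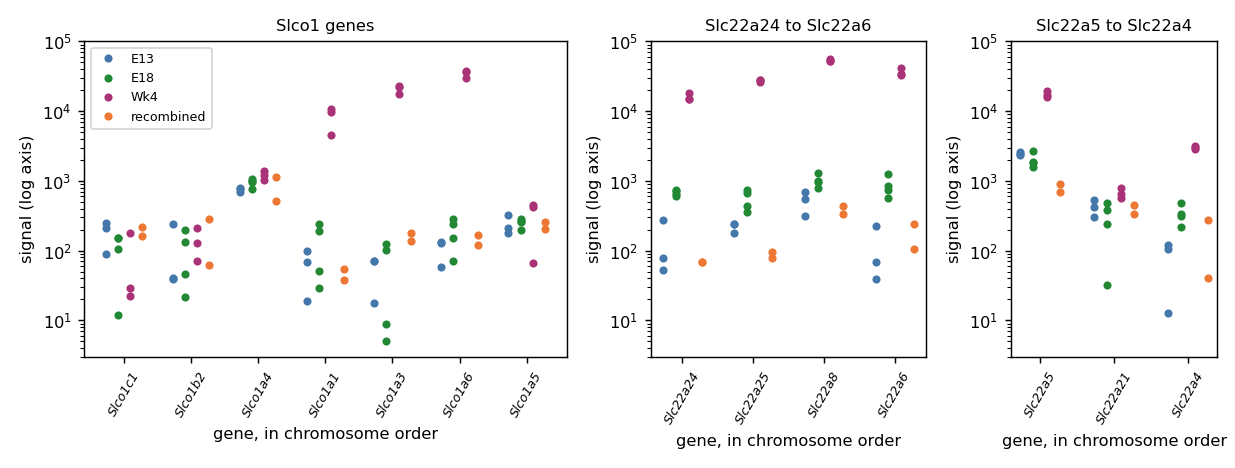
Deposited signal (log axis) of transporter genes that are neighbours, in chromosome order, with 1 point per array coloured by group (E13, E18, Wk4 and recombined tissue). In the left panel Slco1a1, Slco1a3 and Slco1a6 have Wk4 arrays far above the rest and their flanking genes do not; in the middle panel all 4 genes do; in the right panel Slc22a5 and Slc22a4 do and Slc22a21 between them was not called.

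The same contrast between neighbours appeared for the cation carriers: Slc22a2 and Slc22a3 (OCT3) adjoin, and Slc22a3 read 117, 320.3 and 74.5 at Wk4 and was not tested. The other Slco genes moved less. Slco2b1 (1.32 ± 0.19), a broad carrier of steroid sulfates, Slco4a1 (0.99 ± 0.21), a thyroid hormone carrier, Slco2a1 (0.65 ± 0.19) and Slco3a1 (0.64 ± 0.14) had an adjusted p under 0.05 at less than 3-fold.

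Of the 22 ABC genes, 3 were called higher at Wk4, and all are efflux pumps. Abcg2 (BCRP), which exports urate and many drugs, read 1245, 1400.2, 1638 and 1779 at E18 and 12629.5, 13098 and 14583 at Wk4, a difference of 2.95 ± 0.14 (limma adjusted p = 4.88e-10). Abcc4 (MRP4), an apical pump for organic anions and cyclic nucleotides, read 2226, 2116, 1784 and 2139 at E18 and 10468, 9956 and 11113 at Wk4 (2.21 ± 0.15). Abcb1a, which encodes P-glycoprotein, read 96.3, 12.4, 12 and 160.3 at E18 and 949.7, 1051 and 1121 at Wk4 (1.96 ± 0.22). In none of the 3 did the groups overlap. Abcc2 (MRP2), an apical pump for conjugates, was higher by 1.13 ± 0.19 (adjusted p = 0.000119) and missed the 3-fold limit, as did Abcc6 (0.83 ± 0.23), Abcc3 (0.67 ± 0.27) and Abcb10 (0.96 ± 0.14), a mitochondrial transporter. Abcc5, an exporter of cyclic nucleotides, was lower (-0.96 ± 0.18, adjusted p = 0.000394) at less than 3-fold, but its other probe set did not differ (0.0008 ± 0.18). The sterol transporter gene Abcg5 was lower too (-0.83 ± 0.32, adjusted p = 0.042), at less than 3-fold. Its E18 arrays (1253, 837, 640 and 442) overlapped its Wk4 arrays (386, 517 and 96.0), and no Wk4 array was above its 40th percentile. The mitochondrial gene Abcb6 (0.09 ± 0.20) and Abcc1 (0.08 ± 0.15), the first multidrug resistance-associated protein, did not pass the test.

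Of the 19 genes called higher at Wk4, 1 (Slc47a1) had also been called higher at E18 than at E13, against 1.93% of all probe sets tested. At that earlier step 8 were higher by limma with an adjusted p under 0.05 at any size, against 12.7% of all probe sets tested. The E18 mean of the 19 genes was 0.286% to 19.7% of their own Wk4 mean, with a median of 4.25%, and 11 of the 19 were under 5%. Slco1a3 stood at 0.286% (1.29% by its other probe set), Slco1a6 at 0.544% and Slc22a2 at 1.09%, with E18 signals too dim for these shares to be ordered. Slc22a8 stood at 1.88% (8.46% by its other probe set), Slc22a6 at 2.34% and Slc47a1 at 4.38%. The share was highest for Abcc4 (19.7%), Slc22a23 (17.3%), Slc22a5 (11.3%) and Abcg2 (11.3%). Of these, Slc22a23 and Slc22a5 had shares at E13 that were higher still, at 18.9% and 14.1%. For 7 of the 19, no E18 array was above its 40th percentile, so these shares are shares of signal and not of transcript.

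**Figure D4:**
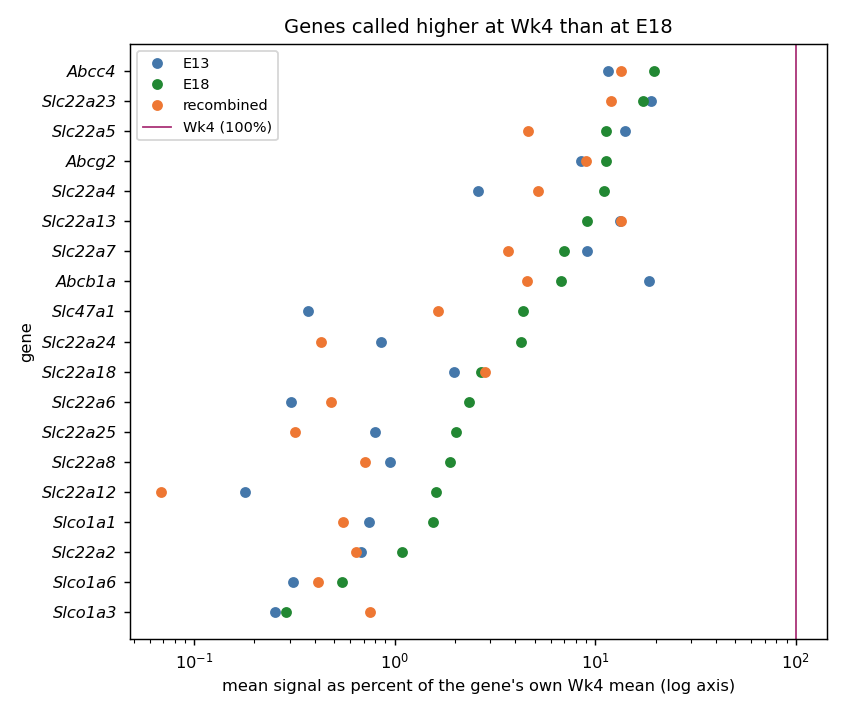
Mean signal at E13, E18 and in recombined tissue as a percent of the gene's own Wk4 mean (log axis), for the 19 transporter genes called higher at Wk4 than at E18. The E18 points run from 0.286% for Slco1a3 to 19.7% for Abcc4, and the recombined points from 0.0686% for Slc22a12 to 13.5% for Abcc4.

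Over the 12 arrays the 4 marker genes were most like other genes of the set that are high at Wk4. On the log2(signal + 271) scale the closest to Slc22a6 was Abcc4 (Pearson r = 0.991), to Slc22a12 Slc22a6 (r = 0.991), to Slc22a8 Slc22a25 (r = 0.992) and to Slc22a2 Slco1a6 (r = 0.994). These values describe 12 arrays in which the Wk4 group stands apart.

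Related genes were followed through the same stages. Of 6 measured partners and driving forces, 4 were called higher at E18 than at E13 and 6 higher at Wk4 than at E18. Of all probe sets tested, 1.93% and 5.76% were so called. Slc13a3, the dicarboxylate carrier that supplies the anion exchangers, read 26.4 at E13, 1979 at E18 and 65417 at Wk4 as group means, and Pdzk1, the brush border scaffold that binds Slc22a12 and other carriers, 108, 7859.7 and 50019.6. The E18 mean of Pdzk1 was 15.7% of its Wk4 mean. Of 16 other drug, urate, peptide, nucleoside and bile acid carriers measured, 14 were tested. At E18 2 were called higher than at E13 (Slc15a2 and Slc17a3). At Wk4 8 were called higher than at E18 and 0 lower. Among the 8 were Slc17a1 (3.57 ± 0.17), a phosphate and urate carrier, and Slc51a (3.24 ± 0.28), a bile acid exit carrier subunit. The nucleoside carriers Slc29a1 (0.00 ± 0.18) and Slc29a2 (-0.61 ± 0.22) were not called.

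Of 10 measured regulators, 9 were tested. At E18 1 was called higher than at E13 (against 1.93% of all probe sets tested), Hnf4a (4.04 ± 0.15), a nuclear receptor of the proximal tubule and liver. At Wk4 3 were called higher than at E18 (against 5.76%): Hnf4a (3.68 ± 0.15), the bile acid receptor gene Nr1h4 (4.04 ± 0.25) and Cebpb (1.61 ± 0.24). Nfe2l2, which encodes the oxidative stress factor NRF2, read 10862 ± 752 (SD, n = 4) at E18 and 15263 ± 559 (SD, n = 3) at Wk4, and its inhibitor gene Keap1 2768 ± 368 (SD, n = 4) and 2648 ± 177 (SD, n = 3). Liver genes were checked because liver shares many of these carriers. Of 8 measured hepatocyte genes, 5 were tested, and 1 (Fga) was called higher and 1 (Afp) lower at Wk4 than at E18. The summed signal of the 8 was 4674 to 5857 at E18 and 3624 to 10942 at Wk4. Wk4 replicate 1 stood apart, with a sum of 10942 against 5333 and 3624 and an albumin (Alb) signal of 4827 against 686 and 611. The part of liver RNA was not tested, and the hepatocyte carriers Slco1b2 and Abcb11 were above the 40th percentile on no array.

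Recombined tissue was set against each stage to place it for these functions. All comparisons with it share its 2 arrays, so they are not independent of each other. Against Wk4, 20 of the 52 genes were called lower (38.5%, against 7.32% of all probe sets tested) and 2 higher (3.85%, against 7.88%). The median difference was -0.67 over the 52 genes and 0.12 over all probe sets. All 19 genes that were higher at Wk4 than at E18 were lower in recombined tissue than at Wk4, a result that both take from the Wk4 arrays, and the remaining gene was Slco2a1 (-2.09 ± 0.22), whose other probe set was not called (-1.21). The difference was -6.80 ± 0.33 for Slc22a12 (limma adjusted p = 4.84e-10), -6.38 ± 0.23 for Slco1a6, -6.37 ± 0.21 for Slc22a8, -6.37 ± 0.26 for Slc22a6, -6.27 ± 0.21 for Slc22a25 and -6.21 ± 0.28 for Slc22a2. Recombined means of the 19 genes were 0.0686% to 13.5% of the Wk4 mean, with a median of 1.65%. These shares are those of the probe sets used: the other probe set of Abcb1a stood at 26.4% and that of Slc22a23 at 23.5%, and neither was called lower there (-1.22 and -1.17). The other probe set of Slc22a8 stood at 3.42% and that of Slco1a3 at 0.391%, and both were called lower. For 13 of the 19, neither recombined array was above its 40th percentile.

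The 2 genes called higher in recombined tissue than at Wk4 were Abcg4, a cholesterol exporter best known in neurons, and Abcc5. Abcg4 read 80.7, 512 and 176 at Wk4 and 3811 and 2393 in recombined tissue, a difference of 2.73 ± 0.32 (limma adjusted p = 4.45e-06). Abcc5 read 951, 1503 and 1219 at Wk4 and 4726 and 4241 in recombined tissue, a difference of 1.68 ± 0.22, and was not called without Wk4 replicate 1 (1.55) or with each array centred on its median (1.52). In both genes the groups did not overlap, and the other probe set of Abcc5 differed by only 0.45.

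Against E18, 0 genes were called lower in recombined tissue (against 1.67% of all probe sets tested) and 2 higher (3.85%, against 2.73%). With an adjusted p under 0.05 at any size, 10 genes were lower and 9 higher by limma. Of all probe sets tested, 15.5% were lower and 12.7% higher by that rule. Neither count, out of 52 genes, stood far above that share. The lower genes included 8 of the 19 that are higher at Wk4 than at E18: Slc22a24 (-1.48 ± 0.21), Slc22a12 (-1.34 ± 0.31), Slc22a6 (-1.31 ± 0.25), Slc47a1 (-1.24 ± 0.33), Slc22a25 (-1.17 ± 0.20), Slc22a5 (-1.04 ± 0.18), Slc22a8 (-0.96 ± 0.20) and Abcc4 (-0.48 ± 0.17). The others were Slco2a1 (-1.43 ± 0.21, adjusted p = 0.000153) and Abcb8 (-0.55 ± 0.17), a mitochondrial transporter. The other probe sets of Slc22a8 (-0.63 ± 0.23) and Slco2a1 (-0.85 ± 0.35) had negative differences that did not pass. Among the carriers that did not pass the test were Slc22a2 (-0.42 ± 0.26), Abcg2 (-0.26 ± 0.16), Abcb1a (-0.08 ± 0.25) and Abcc2 (-0.14 ± 0.21). Slc22a4, Slc22a7, Slc22a23, Slco1a1 and Slco1a6 also had negative differences that did not pass. Slco1a3 (0.39 ± 0.22), Slc22a13 (0.34 ± 0.21) and Slc22a18 (0.05 ± 0.21) had positive ones that did not pass, and the other probe set of Slco1a3 was lower (-0.59 ± 0.20). These values depend on the added 271: with no such addition 5 genes were called lower, namely Slc22a12 (-4.72), Slc22a24 (-3.30), Slc22a25 (-2.61), Slc22a6 (-2.35) and Slco2a1 (-1.78). Slco2a1 was called without recombined replicate 2 (-1.60) and Slc47a1 without recombined replicate 1 (-1.97), so 1 gene was lower in either case, each time with 1 recombined array that is assumed to vary like the other groups.

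Against E13, 4 genes were called higher in recombined tissue (7.69%, against 3.95% of all probe sets tested) and 0 lower (against 0.912%). The median difference was 0.06 over the 52 genes and 0.02 over all probe sets. None of the 19 genes that are higher at Wk4 than at E18 was called by limma between recombined tissue and E13, and their differences ran from -1.34 to 0.93. For 13 of the 19 no E13 array was above its 40th percentile, and for 13 neither recombined array was. Such dim signals leave little room for a call, so the lack of calls does not show likeness to E13. Of these 19, 1 had an adjusted p under 0.05, Slc22a5, with 2408, 2326 and 2599.9 at E13 and 702 and 906 in recombined tissue. It was lower in both recombined arrays than in any kidney array (-1.34 ± 0.19, adjusted p = 9.27e-05), at less than 3-fold. The upper end of that range was Slc47a1, whose recombined arrays were far apart at 969.8 and 176 against 119.8, 23.3 and 245 at E13. Without recombined replicate 2 it was called higher (1.67), in a fit where the lone recombined array is assumed to vary like the arrays of the other groups.

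The 4 genes called higher in recombined tissue than at E13 were Slco2b1, Abcg4, Abcc9 and Abcg1. Slco2b1 read 279, 252 and 200.3 at E13, 650.1, 397, 607 and 409 at E18, 1523, 1409 and 2155 at Wk4 and 3134 and 3099 in recombined tissue, a difference from E13 of 2.72 ± 0.22 (limma adjusted p = 7.31e-07) and from E18 of 2.12 ± 0.21. Abcg4 read 237, 276 and 294 at E13 and 261, 448, 352 and 474 at E18, and differed from them by 2.61 ± 0.32 and 2.34 ± 0.30. For both genes the recombined arrays lay above all kidney arrays. The other probe set of Slco2b1 differed from E13 by 0.63 and from E18 by 1.03 and was called in neither, and with 4 times the added value neither gene was called against E18 (1.40 for Slco2b1 and 1.49 for Abcg4). Abcg1, which exports cholesterol from macrophages and other cells, read 1920.3, 1791 and 2200.1 at E13, 2718, 3534, 3444 and 3595 at E18, 4694, 4443 and 4757 at Wk4 and 6901 and 7054 in recombined tissue (1.70 ± 0.15 against E13). It too was highest in the recombined arrays, but was not called with array medians centred (1.5), nor by its other probe sets (0.90 and 0.54). Abcc9 read 2399 and 3333 in recombined tissue (2.23 ± 0.25 against E13) and 2199, 1859 and 2146 at Wk4, and its recombined and E18 arrays overlapped. Its other tested probe set gave 1.53 against E13, just under 3-fold.

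Slco4a1 (1.37 ± 0.25), Abcc1 (0.77 ± 0.18), Abcc5 (0.74 ± 0.22) and Slco3a1 (0.58 ± 0.16) were also higher than at E13 with an adjusted p under 0.05 and less than 3-fold. The other probe sets of Abcc5 (0.13 ± 0.21) and Slco4a1 (1.02 ± 0.38) did not pass, while that of Slco3a1 did (1.24 ± 0.24). Slco4a1 read 2393 and 1182 in recombined tissue and was called without recombined replicate 2 (1.80). With that array left out 6 genes were called higher in place of 4.

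Markers of other cells also differed between recombined tissue and E13. Of all probe sets tested, 3.95% were called higher and 0.912% lower between these groups. Of 8 leukocyte genes, 6 were called higher in recombined tissue than at E13 (Lyz2, Cd68, Ptprc, Aif1, Laptm5 and Csf1r), while Cd74 read 459.7 against 249 and Itgam was not tested. Their summed signal was 3570 to 5492 at E13, 10865 to 14889.8 at E18, 80212 to 87527 at Wk4 and 90488 to 147870 in recombined tissue. Cd74, of MHC class II presentation, had a mean of 50846 at Wk4. Of 6 fibroblast and smooth muscle genes, 4 were called higher than at E13, with summed signals of 78073 to 120762 at E13 and 379306 to 462618 in recombined tissue. Of 6 endothelial genes, 3 were called lower than at E13, with sums of 25807 to 34474 at E13 and 4090 to 11648 in recombined tissue. Of 8 erythroid genes, 7 were tested and all 7 were called lower than at E13. The sums of the 8 were 319939 to 403496 at E13 and 1655 to 3275 in recombined tissue. Beside these, Abcb10, abundant in maturing red cells, differed by -0.10 ± 0.17. The part of these cells in the levels of Slco2b1, Abcg1, Abcg4, Abcc9 and Abcb10 was not tested.

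**Figure D5:**
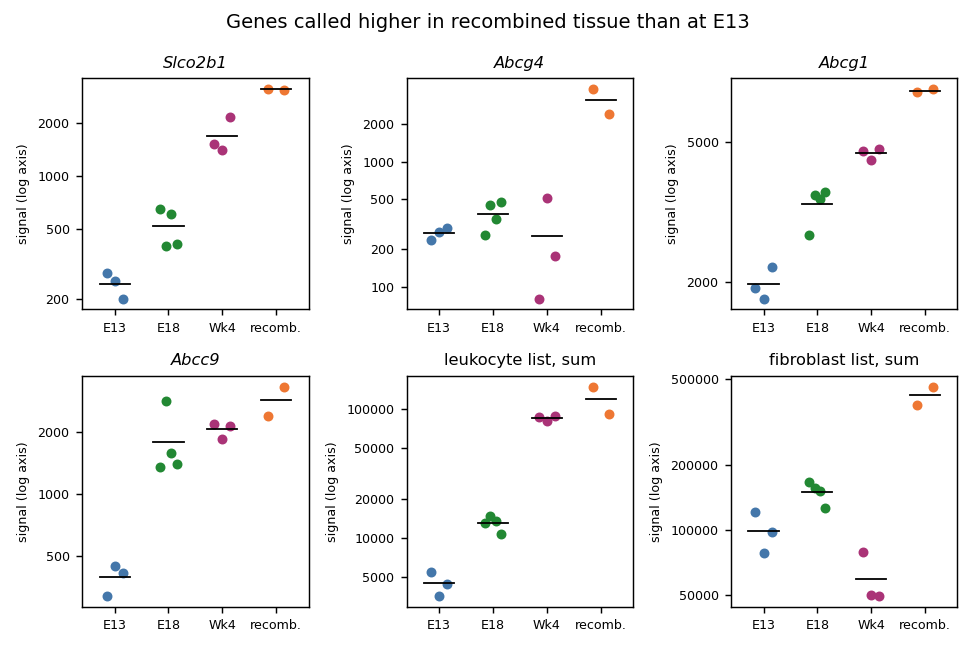
Deposited signal (log axis) in each array of the 4 transporter genes called higher than at E13 in recombined tissue, with the summed signal of the leukocyte list (8 genes) and the fibroblast and smooth muscle list (6 genes). Points are arrays and lines are group means; both recombined arrays lie above all kidney arrays for Slco2b1, Abcg4, Abcg1 and both sums, and overlap the E18 arrays for Abcc9.

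The related genes in recombined tissue were mixed. Slc13a3 (2.34 ± 0.24) and Atp1b1 (2.77 ± 0.17), a subunit of the sodium pump that drives these exchanges, were called higher than at E13, the 2 of 6 partners that were, while Pdzk1 read 27.3 and 83.9 and Slc13a2 65.2 and 473. Of the 16 other carriers 14 were tested. By limma 0 were called in either direction against E13, and against Wk4 9 were called lower and 0 higher. Of all probe sets tested, 3.95% were called higher and 0.912% lower against E13, and 7.88% higher and 7.32% lower against Wk4. Hnf4a stood at 33.9 ± 4.66 (SD, n = 2) in recombined tissue against 4820.5 ± 870.3 (SD, n = 4) at E18, and it and Nr1h4 were the 2 of 10 regulators called lower than at Wk4. Cebpb was higher than at E13 (3.39 ± 0.29) and the only regulator so called, while Nfe2l2 differed by 1.37 ± 0.11 at less than 3-fold.

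Across the 5 comparisons, 20 of the 45 tested genes were called in none. Among them were the mitochondrial genes Abcb6, Abcb8 and Abcb10, the basolateral pumps Abcc1 and Abcc3, the apical pump Abcc2, the channel subunit gene Abcc8 and Slc22a15, Slc22a17 and Slc22a21. The most frequent sequence that held a call, in 18 genes, was higher at Wk4 than at E18, lower in recombined tissue than at Wk4, and no call among E13, E18 and recombined tissue.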

How the data were processed

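The authors deposited one linear intensity per probe set and array. The submitters' processing notes name GCOS, Affymetrix's scanner software, without version or settings. Biotinylated cRNA was made from total RNA, per the labels' protocols. The trimmed mean (2% off each end) was 2500.0 in every array, so each had been scaled globally, and a change of total RNA would not show.

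The 57 control probe sets were left out. Values were used as log2(signal + 271), the 25th percentile of all values, and 22599 of 31042 probe sets were kept, those that exceeded the 40th percentile of 2 or more arrays. Names came from the platform annotation (20826 probe sets with 1 symbol, 436 with several, 9780 with none), and all 52 genes matched the current rat annotation by gene ID. Coordinates are those of RefSeq's GRCr8 table. A linear model of group with 8 residual degrees of freedom and an intensity trend was fitted to all arrays (limma 3.58.1, R 4.3.3). Each of 5 comparisons was two-sided and adjusted by Benjamini-Hochberg over what was kept. The steps were tested on simulated data first.

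The transporter genes and all lists were chosen with earlier results of these data known. Genes given by array were the 4 markers, the 5 highest and 5 lowest called differences per comparison, and genes that a small count refers to. Alternatives covered the pseudocount, normalization, filter, each array, the replicate block, the variance model, the arrays in the fit, the call rule, a set of embryonic arrays and the probe sets of a gene.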

Additional observations from a re-analysis of the deposited data

Results flagged for a closer look

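In 5 of the 52 genes, 1 of the 4 E18 arrays stood apart from the other 3 by more than Dixon's 95% limit for 4 values; chance alone would mark about 1 in 20 groups. The gap over the range was 0.972 for Abcc10, with arrays at 747, 746, 759.6 and 280.1, where replicate 4 was low. It was 0.914 for Slc47a1, where replicate 2 was low (1719.8, 978, 1659 and 1723), and 0.912 for Abcc1, where replicate 4 was low (1793, 1803, 1776 and 1497). It was 0.877 for Slco3a1, where replicate 4 was high (1091, 1098, 1108 and 1228), and 0.838 for Abcc9, where replicate 2 was high (1355, 2831, 1594 and 1409.6).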

How the results depend on the processing

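The count of genes called higher at Wk4 than at E18 stayed within 1.5 times its value of 19 under every alternative, and between recombined tissue and Wk4 so did the 20 called lower. No called gene changed sign. Small counts moved. Genes called higher at E18 than at E13 numbered 6 with no pseudocount, 0 with 4 times the pseudocount, 1 with quantile normalization, 1 with array medians centred, 6 at 2-fold and 1 with probe sets averaged by gene, against 2. Between recombined tissue and E13, 4 times the pseudocount gave 2 higher against 4, and no pseudocount and the 2-fold rule each gave 1 lower against 0. Between recombined tissue and E18, genes lower numbered 5 with no pseudocount, 1 with array medians centred and 7 at 2-fold against 0, and genes higher 0 with 4 times the pseudocount and 1 with the mean of probe sets against 2. Between recombined tissue and Wk4, genes higher numbered 1 with 4 times the pseudocount, with medians centred and with the mean of probe sets, against 2.

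With each array left out in turn, the counts ran from 1 to 3 (higher at E18 than E13), 19 to 19 (higher at Wk4 than E18), 4 to 6 (recombined above E13), 2 to 2 (recombined above E18), 0 to 1 (recombined below E18), 1 to 2 (recombined above Wk4) and 20 to 21 (recombined below Wk4). With the replicate number as a block, 1 gene was lower in recombined tissue than at E18, Slc22a24 (-1.60), and the other counts stayed within 1.5 times their value. Whether the numbers pair the arrays is not stated. The deviations of same-numbered arrays correlated at -0.172 to 0.312, over 0.1 in 1 of 15 pairs, and 3 of 12 arrays were closest to their own number. With so few arrays in each group, these values cannot exclude pairing. Centring array medians takes out a median difference over the tested probe sets of -0.12 from E18 to Wk4 and 0.19 from Wk4 to recombined tissue. With 2 sets of embryonic arrays as a covariate (E13 replicate 1 with E18 replicates 1 to 3, against the rest, known from an earlier analysis of these data), Slc22a6 was called at E18 (1.64) and Abcc9 was not (1.57). Where a recombined array is left out, the lone one left is assumed to vary like the other groups. Dim signals limit the order of low values, since the file has no detection calls.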

Other observations

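Of the 52 genes 15 had more than 1 probe set, and the others were compared with the one used. For genes called higher at Wk4 than at E18, 4 other tested probe sets all had the same sign and 3 the same call: those of Slco1a3 (5.25 ± 0.18), Slc22a8 (2.91 ± 0.20) and Abcb1a (1.87 ± 0.24). The other probe set of Slc22a23 differed by 1.42 ± 0.26. For genes called higher in recombined tissue than at E13, 4 other tested probe sets had the same sign and 0 the same call by limma: that of Slco2b1 differed by 0.63 ± 0.31, that of Abcc9 by 1.53 ± 0.28, and those of Abcg1 by 0.90 ± 0.31 and 0.54 ± 0.29. In the other comparisons the same call was found for 0 of 1 between E18 and E13 (Abcc9, 1.05 ± 0.23), 0 of 1 between recombined tissue and E18 (Slco2b1, 1.03 ± 0.30) and 2 of 6 between recombined tissue and Wk4 (Slc22a8 and Slco1a3). The 4 without a call there were Abcb1a (-1.22 ± 0.29), Slco2a1 (-1.21 ± 0.37), Slc22a23 (-1.17 ± 0.31) and Abcc5 (0.45 ± 0.21), and all 6 had the same sign.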
